A study of Mus musculus with 12 samples.

Results

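The CXC chemokines are small secreted proteins that guide leukocytes, and 9 of their genes, Cxcl1, Cxcl2, Cxcl3, Cxcl5, Cxcl9, Cxcl10, Cxcl11, Cxcl16 and Pf4, were followed here among the 43280 genes of the deposited expression table. They were chosen by symbol, and all 9 were found. RNA came from bone marrow-derived macrophages (BMDM), cells grown from mouse marrow in M-CSF, of wild type (wt) and Treml4-/- animals on a C57BL6 background. Both genotypes were left unstimulated with vehicle (M0) or received lipopolysaccharide (LPS), a bacterial cell wall component sensed by TLR4, at 100 ng/ml for 8 h (M1-8 h) or 12 h (M1-12 h), with 2 biological replicates in each of the 6 conditions. The sample titles name LPS alone, while the paper describes M1 stimulation of BMDM in another experiment as LPS with interferon gamma. The titles do not say whether interferon gamma was added here. The Treml4-/- line lacks a myeloid receptor of the TREM family in all cells, and the age and sex of the animals and the time in vehicle are not given in the sources used here. The questions were how far each chemokine moved with LPS, whether NF-kB-driven members moved like interferon-driven ones, and whether the genotype changed either.

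Cxcl1, Cxcl2, Cxcl3 and Cxcl5 carry the ELR motif before their first cysteines, act on CXCR2 and call in neutrophils. Their transcription in macrophages is a textbook response to NF-kB downstream of Toll-like receptors. Cxcl9, Cxcl10 and Cxcl11 act on CXCR3 of T and NK cells and are induced by interferons, with NF-kB as a partner at Cxcl10. LPS reaches the second group indirectly in part, through the interferon beta that macrophages release. Cxcl16 is made as a membrane protein that binds CXCR6, and Pf4, platelet factor 4, is a granule chemokine of megakaryocytes. These 2 genes were placed in neither class. Only RNA was measured here, so the values do not show whether a working protein was made, for Cxcl11 or any other member.

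Between 48008751 and 58500792 reads were counted per library, so that 3 reads, taken here as the floor of detection, were worth 0.0513 to 0.0625 CPM, the reads of a gene scaled to a common library total. Treml4 had 198 to 663 reads in the 6 wt libraries and 0 reads in the 6 Treml4-/- libraries, as the labels say. Of 7 macrophage markers, 6 were found by symbol and each reached 1 CPM in every condition, with a summed level of 8113 to 25435 CPM. The T and NK cell markers Cd3e, Cd3g, Ncr1, Klrb1c and Ifng summed to 0 to 0.826 CPM, and Ifng had 1 read in all 12 libraries together. Neutrophil markers summed to 33.1 to 104 CPM. These are bulk samples, in which fewer cells of a type and less RNA per cell cannot be told apart.

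Of the 9 genes, 8 lie in 2 clusters on chromosome 5 of GRCm38. Cxcl5, Pf4, Cxcl3, Cxcl1 and Cxcl2 lie in this order within 146.6 kb, from 90759360 to 90905938, and Cxcl9, Cxcl10 and Cxcl11 within 44.1 kb, from 92321347 to 92365485. Cxcl16 stands alone on chromosome 11, from 70453983 to 70459984. RefSeq promoter sequence (GRCm38.p6) was at hand for 6 of the 9, Cxcl1, Cxcl2, Cxcl3, Cxcl9, Cxcl10 and Pf4. In the 250 bases before the start site, on both strands, 3 motifs are described, namely the kB consensus of NF-kB, the core of the interferon-stimulated response element (GAAANNGAAA) and TATAAA. Among 32851 promoters these were found in 7.25%, 2.98% and 12.4%. Cxcl1, Cxcl2 and Cxcl3 each held 2 overlapping kB matches, 1 on each strand, that join into the same 11 bases, GGGAATTTCCC. These 11 bases are also the longest run that the 3 windows share, and 14 of the 32851 promoters (0.0426%) hold them. Cxcl10 held 3 kB matches, 2 of them overlapping, and the only interferon response element core among the 6. Cxcl9 and Pf4 held neither, and TATAAA was found in Cxcl3 and Cxcl9. The matches are letters in a window, not measured binding. The stretches that hold them are shown with kB and interferon element matches in capitals, and Cxcl9 is shown beside them as the member with the largest change of log2(CPM + 1) at both LPS times. They end 31 bases before the RefSeq start, because annotations place the start of Cxcl2 differently.
Cxcl1, chr5:90891125-90891214, plus strand: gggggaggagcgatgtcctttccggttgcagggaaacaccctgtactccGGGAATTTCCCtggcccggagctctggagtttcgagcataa
Cxcl2, chr5:90903779-90903868, plus strand: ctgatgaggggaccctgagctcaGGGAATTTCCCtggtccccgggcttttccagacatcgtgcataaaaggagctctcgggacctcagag
Cxcl3, chr5:90785981-90786070, plus strand: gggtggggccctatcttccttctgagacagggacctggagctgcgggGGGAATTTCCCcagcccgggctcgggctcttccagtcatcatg
Cxcl10, chr5:92348920-92349109, minus strand: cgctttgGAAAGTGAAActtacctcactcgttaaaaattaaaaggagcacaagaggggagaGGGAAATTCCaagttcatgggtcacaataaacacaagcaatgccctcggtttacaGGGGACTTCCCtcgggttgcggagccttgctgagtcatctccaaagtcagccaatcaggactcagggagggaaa
Cxcl9, chr5:92328110-92328199, minus strand: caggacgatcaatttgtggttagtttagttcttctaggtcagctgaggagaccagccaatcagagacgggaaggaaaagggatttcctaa

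Unstimulated macrophages held mainly Cxcl16 and Pf4. Per kb of transcript, the scale used wherever genes are compared with each other, Cxcl16 stood at 189 ± 18.9 CPM per kb in wt and 168 ± 1.22 in Treml4-/- M0 cells (SD, n = 2), and Pf4 at 73.8 ± 31.6 and 93.6 ± 0.137. Cxcl2 and Cxcl10 followed between 2.91 and 4.53 CPM per kb, and the other 5 members lay under 2. In wt M0 cells the libraries of Cxcl2 and Cxcl10 overlapped, as did those of Cxcl11 and Cxcl3 in both genotypes and those of Cxcl1 and Cxcl9 in Treml4-/- cells. The 9 members together took 0.0515% to 0.0593% of all reads, and 97.3% to 98.0% of these were Cxcl16 and Pf4.

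After LPS the order was another. Cxcl10 was first in all 4 LPS conditions, at 2536 to 3122 CPM per kb, and Cxcl9 second at 1642 to 2259. Cxcl16 came next at 281 to 384 CPM per kb, then Cxcl11 at 89.7 to 147. Cxcl2 and Pf4 came next, and their libraries overlapped in every LPS condition but Treml4-/- M1-8 h. In wt M1-8 h the libraries of Cxcl11 and Cxcl2 overlapped as well, the lowest of Cxcl11 at 86.2 and the highest of Cxcl2 at 94.1 CPM per kb. Cxcl1 and Cxcl3 lay between 3.80 and 16.3, and Cxcl5 was last at 0.195 to 0.376. Members took 0.837% to 1.15% of all reads, of which 88.9% to 91.1% came from Cxcl9, Cxcl10 and Cxcl11 and 0.847% to 1.31% from Cxcl1, Cxcl2, Cxcl3 and Cxcl5.

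**Figure D1:**
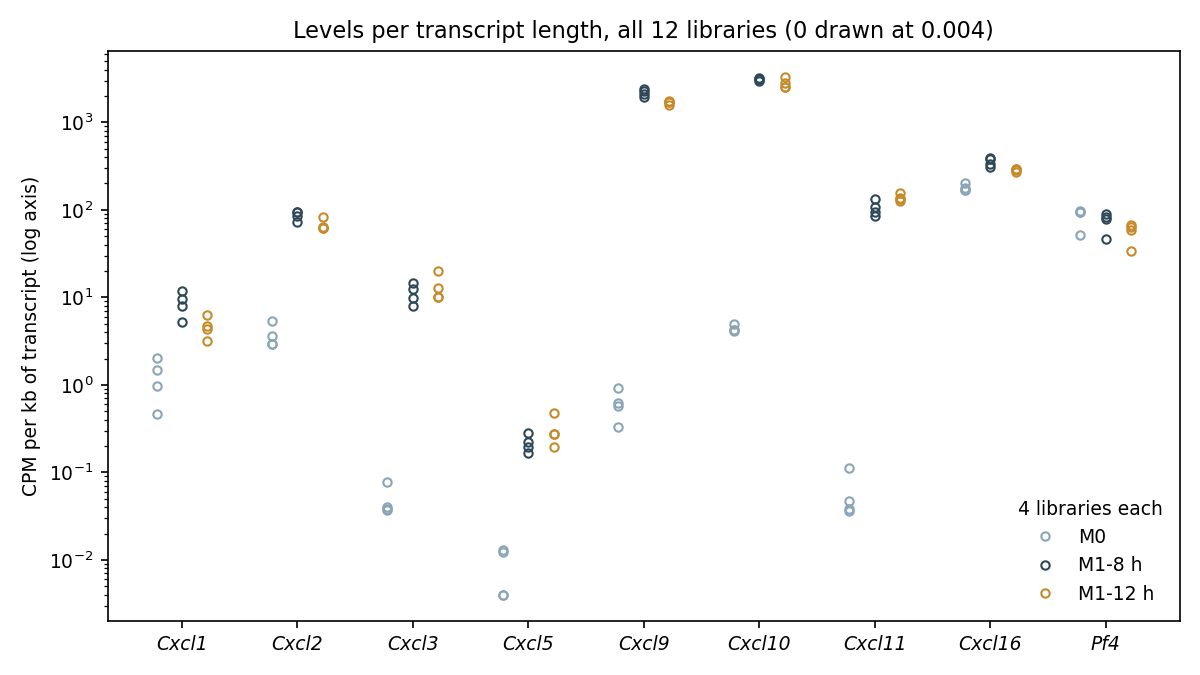
Level of each member per kb of transcript (log axis) in the 12 libraries, with M0, M1-8 h and M1-12 h side by side and both genotypes pooled as open circles. Libraries with 0 reads are drawn at the bottom. Cxcl16 and Pf4 are the highest at M0, and Cxcl10 and Cxcl9 the highest after LPS, where Cxcl10 reaches 2536 to 3122 CPM per kb as a mean of a condition.

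The NF-kB-driven members rose from low or barely detected levels. Cxcl2, also called MIP-2, was at 4.03 and 6.02 CPM in wt M0 and 3.24 and 3.22 in Treml4-/- M0 libraries. At 8 h it was at 104 and 80.1 CPM in wt against 104 and 93.9 in Treml4-/- BMDM, and at 12 h at 70.0 and 69.3 in wt against 91.5 and 68.2 in Treml4-/- BMDM. Every LPS library lay above every M0 library. Differences were tested with limma on log2(CPM + 1), which shrinks the changes of weakly expressed genes, and a gene was called at a Benjamini-Hochberg adjusted p under 0.05 over the 12086 genes tested and a fold of at least 1.4. Averaged over both genotypes, Cxcl2 rose on the log2 scale by 4.26 (SE 0.13, adjusted p = 4.8e-11) at 8 h and 3.91 (SE 0.13, adjusted p = 1.0e-10) at 12 h.

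Cxcl1, also called KC, was at 1.41 and 1.93 CPM in wt M0 and 0.448 and 0.935 in Treml4-/- M0 libraries. It reached 11.2 and 9.12 CPM in wt against 7.62 and 5.03 in Treml4-/- BMDM at 8 h, and was back at 4.53 and 6.03 in wt against 4.19 and 3.06 in Treml4-/- BMDM at 12 h. The 3 times did not overlap within either genotype. Its log2 fold change was 2.09 (SE 0.16, adjusted p = 1.1e-07) at 8 h and 1.34 (SE 0.16, adjusted p = 5.6e-06) at 12 h.

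Cxcl3 had 2 and 4 reads in the wt M0 libraries and 2 and 2 in the Treml4-/- ones, at or near the floor. It was at 10.1 and 8.00 CPM in wt against 14.8 and 12.7 in Treml4-/- BMDM at 8 h, and at 10.3 and 10.2 in wt against 20.1 and 13.0 in Treml4-/- BMDM at 12 h. With the reads of both replicates summed, its CPM ratio of 8 h to M0 was 154 (exact 95% interval 70.5 to 420.5) in wt and 353 (138 to 1299) in Treml4-/- cells. These intervals cover counting error only. On the log2(CPM + 1) scale Cxcl3 rose by 3.53 (SE 0.13, adjusted p = 2.0e-10) at 8 h and 3.73 (SE 0.13, adjusted p = 1.3e-10) at 12 h, against 7.76 and 7.97 on the deposited log2 scale, whose prior is 0.25 reads.

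Cxcl5, also called LIX, never reached 1 CPM and was the member left out of the test. It had 1 and 0 reads in the M0 libraries of each genotype, 13 and 19 in wt against 26 and 17 in Treml4-/- BMDM at 8 h, and 16 and 22 in wt against 36 and 25 in Treml4-/- BMDM at 12 h. Every LPS library had more reads than every M0 library. The CPM ratio of 8 h to M0 was 31.8 (exact 95% interval 5.31 to 1294) in wt and 39.0 (6.63 to 1575) in Treml4-/- cells.

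The interferon-driven members rose more. Cxcl9, also called MIG, was at 0.964 and 2.69 CPM in wt M0 and 1.81 and 1.65 in Treml4-/- M0 libraries. At 8 h it stood at 6081 and 6973 CPM in wt against 5617 and 6647 in Treml4-/- BMDM, and at 12 h at 4960.2 and 5013 in wt against 4981 and 4503 in Treml4-/- BMDM. Its log2 fold change was 11.18 (SE 0.16, adjusted p = 1.5e-13) at 8 h and 10.81 (SE 0.16, adjusted p = 2.0e-13) at 12 h, rank 2 by log2 fold change among the 12086 genes tested at both times.

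Cxcl10, also called IP-10, was at 4.49 and 5.37 CPM in wt M0 and 4.58 and 4.68 in Treml4-/- M0 libraries. It stood at 3490.2 and 3240.0 CPM in wt against 3448 and 3383 in Treml4-/- BMDM at 8 h, and at 3100.4 and 3637 in wt against 2789.6 and 2760.0 in Treml4-/- BMDM at 12 h. Its log2 fold change was 9.20 (SE 0.07, adjusted p = 3.6e-15) at 8 h, rank 6, and 9.05 (SE 0.07, adjusted p = 4.0e-15) at 12 h, rank 10.

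Cxcl11, also called I-TAC, had 3 and 9 reads in wt M0 and 3 and 4 in Treml4-/- M0 libraries. It reached 148 and 136 CPM in wt against 169 and 213 in Treml4-/- BMDM at 8 h, and 218 and 248 in wt against 211 and 201 in Treml4-/- BMDM at 12 h. Its log2 fold change was 7.24 (SE 0.09, adjusted p = 4.1e-14) at 8 h and 7.65 (SE 0.09, adjusted p = 2.7e-14) at 12 h. As a CPM ratio of summed reads its rise at 8 h, 1212 in wt (exact 95% interval 694 to 2346) and 2783 in Treml4-/- cells (1351 to 6923), lay above that of Cxcl10, 682 (625 to 746) and 738 (674 to 809). So Cxcl10 ranks over Cxcl11 on the log2(CPM + 1) scale and under it by the ratio itself. In wt the intervals of the ratios overlapped, and the intervals cover counting error only.

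**Figure D2:**
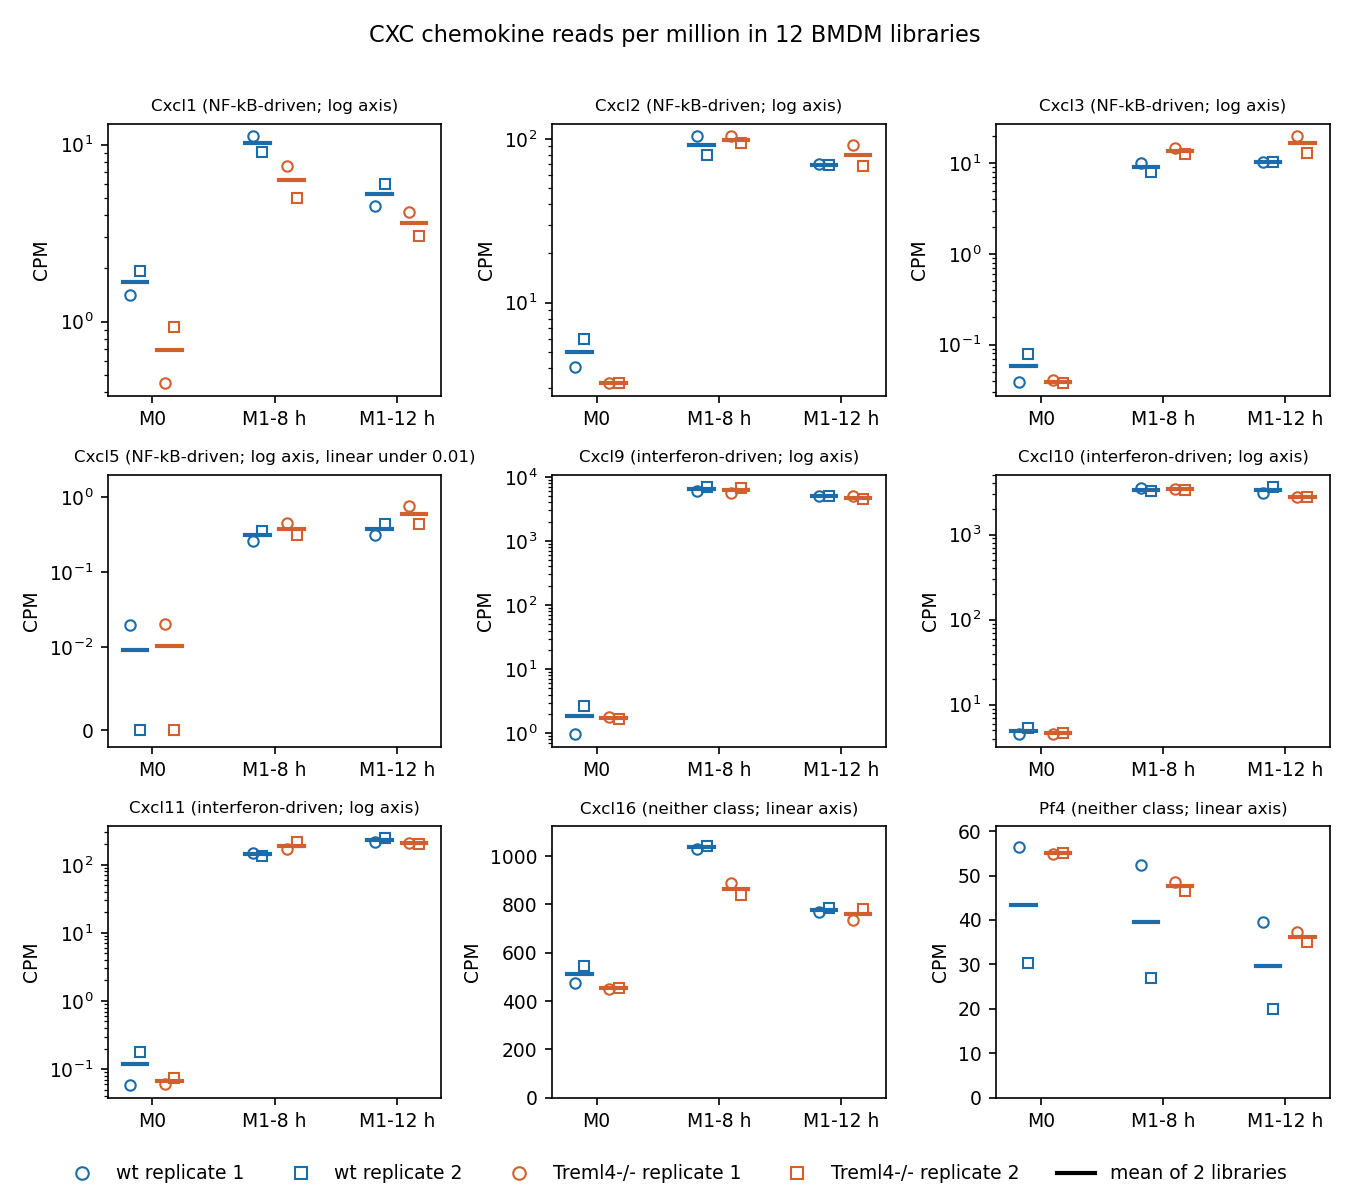
CPM of each member in each library by time, wt in blue and Treml4-/- in orange, circles for replicate 1, squares for replicate 2 and bars for the mean of 2 libraries. Axes are logarithmic except for Cxcl16 and Pf4, and below 0.01 for Cxcl5. All members but Pf4 sit higher in every LPS library than in every M0 library, and the wt replicate 2 square of Pf4 is the lowest point at each time.

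On this log2 scale the ranges of the classes did not overlap. The log2 fold changes of the 3 tested NF-kB-driven members ran from 2.09 to 4.26 at 8 h (median 3.53) and from 1.34 to 3.91 at 12 h (median 3.73). Those of the 3 interferon-driven members ran from 7.24 to 11.18 (median 9.20) and from 7.65 to 10.81 (median 9.05). On the deposited log2 scale the ranges at 8 h were 2.93 to 7.76 and 9.47 to 11.88. As ratios of summed reads, the counting interval of Cxcl3 in Treml4-/- cells, 138 to 1299, reached into that of Cxcl10. With 3 tested members in each class, which are not replicates, the difference between classes carries no test.

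Cxcl16 was already abundant and rose less. It was at 474 and 546 CPM in wt M0 and 450.3 and 455 in Treml4-/- M0 libraries, at 1030.5 and 1044 in wt against 891 and 839 in Treml4-/- BMDM at 8 h, and at 769 and 784 in wt against 736 and 782 in Treml4-/- BMDM at 12 h. Its log2 fold change was 0.98 (SE 0.06, adjusted p = 2.0e-08) at 8 h and 0.68 (SE 0.06, adjusted p = 5.3e-07) at 12 h. ADAM10 and ADAM17 are proteases that release Cxcl16 from the membrane. Adam10 fell by 1.67 (SE 0.10, adjusted p = 1.7e-08) on the log2 scale at 8 h, and Adam17 stood at 0.12 (SE 0.09, adjusted p = 0.251), not called, but was called higher with median of ratios scaling (0.92) and stood at -0.045, not called, with quantile normalization.

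Pf4 was the tested member not called higher. It was at 56.5 and 30.2 CPM in wt M0 and 55.0 and 55.1 in Treml4-/- M0 libraries, at 52.3 and 27.0 in wt against 48.5 and 46.6 in Treml4-/- BMDM at 8 h, and at 39.5 and 20.0 in wt against 37.3 and 35.0 in Treml4-/- BMDM at 12 h. The wt library of replicate 2 was the lowest of the 4 at each time. The log2 fold change was -0.17 (SE 0.25, adjusted p = 0.522) at 8 h and -0.57 (SE 0.25, adjusted p = 0.0485) at 12 h, the latter called, but with libraries scaled by the median of ratios it turned to 0.26 (adjusted p = 0.303) and at 8 h to 0.61 (adjusted p = 0.0278). Over 25 alternatives the call at 12 h was made in 13, and its adjusted p ran from 8.5e-06 to 0.994. It was lost without any 1 of 8 libraries, for example at -0.35 without wt M0 replicate 1 and -0.33 without wt M1-12 h replicate 2. Within each genotype and replicate number Pf4 CPM was lower at 8 h than at M0 in 4 of 4 series and lower at 12 h than at 8 h in 4 of 4, though the labels do not say that a number marks 1 culture across times. With such series as a block the log2 fold changes had an SE of 0.06, and adjusted p was 0.0196 at 8 h, 8.5e-06 at 12 h and 3.4e-04 between the times, of which the change at 12 h also passed a fold of 1.4. Megakaryocyte and platelet markers summed to 3.36 to 4.98 CPM in the M0 and 1.86 to 3.20 in the LPS libraries, but did not move together. Treml1 fell by 1.69 (SE 0.11, adjusted p = 2.3e-08) at 8 h. Itga2b, the highest of them by mean CPM, stood at 0.36 (SE 0.14, adjusted p = 0.0286), under a fold of 1.4. Gp6 had a higher mean after LPS in both genotypes, but stayed under 1 CPM. Of these 7 markers 2, Itga2b and Treml1, reached 1 CPM at M0, and Gp1bb had 0 reads in wt M0 and Treml4-/- M1-12 h. Ppbp, another platelet chemokine, had 0.354 to 1.08 CPM. The part of such cells in the Pf4 level was not tested.

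In count, 7 of the 8 tested members were called higher at 8 h and 7 at 12 h, where 17.1% and 16.3% of all genes tested were. Cxcl3 and Cxcl11 reached 1 CPM in LPS libraries only, so the filter let them in through the side where they are high. Of the 6 members that passed in M0 libraries, 5 were called higher at each time. None was called lower at 8 h and 1, Pf4, at 12 h, where 59.8% and 60.3% of all genes were. The median log2 fold change of all genes was -0.72 at 8 h and -0.76 at 12 h, against 3.90 and 3.82 for the 8 members. With libraries scaled by the median of ratios, the all-gene median moved to -0.01 and 0.00, and the split of called genes from 2070 higher and 7225 lower to 3800 and 3687 at 8 h and from 1965 and 7284 to 3981 and 3848 at 12 h. The same 7 members rose under that scaling and under quantile normalization, Cxcl16 by 1.78 and 0.78 at 8 h.

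**Figure D3:**
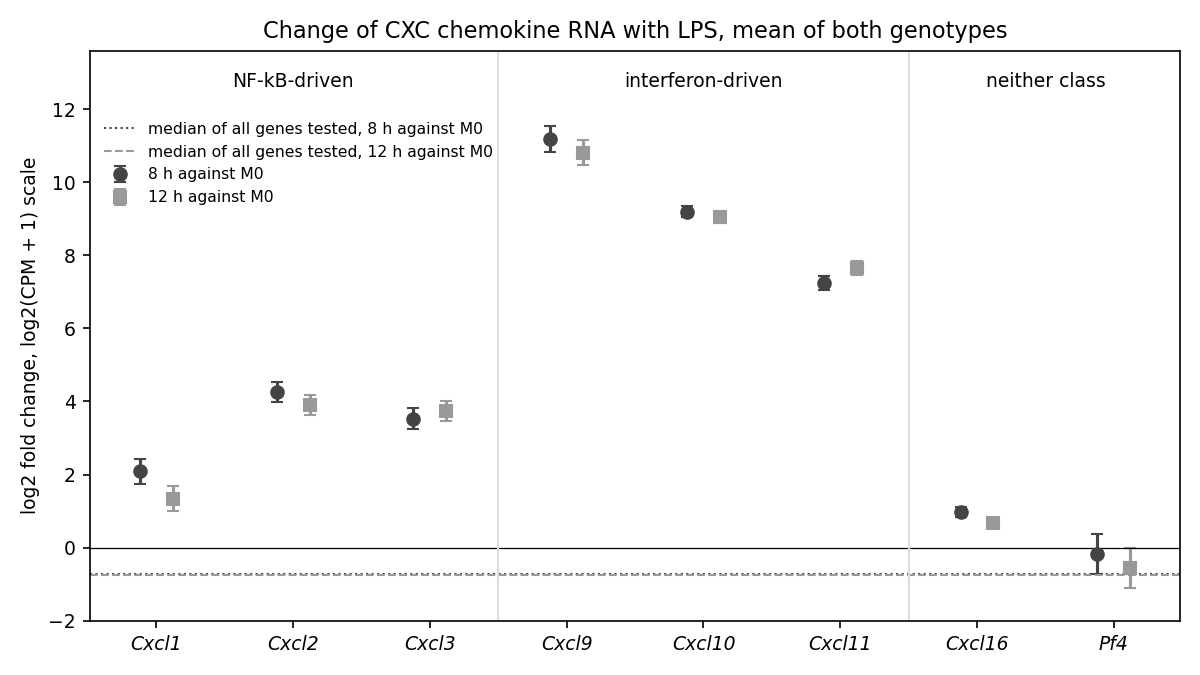
Log2 fold change of the 8 tested members with LPS at 8 h (circles) and 12 h (squares) against M0, on the log2(CPM + 1) scale and averaged over both genotypes, with 95% confidence intervals from limma. The dotted and dashed lines are the medians of all 12086 genes, -0.72 and -0.76. NF-kB-driven members lie between 1.34 and 4.26, interferon-driven ones between 7.24 and 11.18.

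Between 8 h and 12 h of LPS 1 tested member was called. Cxcl1 fell by 0.74 (SE 0.16, adjusted p = 0.0017) on the log2 scale and was called lower, where 18.7% of all genes were, and no member was called higher, where 13.5% of all genes were. Of the others, Cxcl11 changed by 0.41 (SE 0.09, adjusted p = 0.0016), Cxcl16 by -0.30 (SE 0.06, adjusted p = 0.0012) and Cxcl2 by -0.35 (SE 0.13, adjusted p = 0.032), past the threshold on p but under a fold of 1.4. Cxcl9 stood at -0.38 (SE 0.16, adjusted p = 0.056), Cxcl10 at -0.15 (95% interval -0.30 to 0.0015), Cxcl3 at 0.20 (-0.079 to 0.48) and Pf4 at -0.40 (-0.94 to 0.15), none called. With quantile normalization Cxcl9 at -0.51 and Cxcl11 at 0.50 were called too.

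The wider pathways were set beside these values. Of 12 NF-kB genes (subunits, inhibitors and classic targets), 11 were called higher at 8 h and 8 at 12 h, beside 17.1% and 16.3% of all genes, with median log2 fold changes of 1.79 and 1.36. With median of ratios scaling, 12 were called at each time, with medians of 2.57 and 2.20. Between 8 h and 12 h, 0 were called higher and 7 lower, with a median of -0.57, beside 13.5% and 18.7% of all genes. All 12 were lower at 12 h than at 8 h in sign, and 11 of 12 with either other scaling. Tnfaip3, which encodes the inhibitor A20, rose by 4.30 (SE 0.08) at 8 h and then fell by 1.11 (SE 0.08), Nfkbia, which encodes IkBa, by 2.09 and then fell by 0.61 (SE 0.06), and Nfkb1, the p105 subunit gene, by 1.58 (SE 0.13) and then fell by 1.54 (SE 0.13). Icam1, an adhesion molecule gene, rose by 1.99 (SE 0.07) and stood at -0.42 (SE 0.07) between the times, under a fold of 1.4. Cxcl3 at 0.20 had the other sign from these genes, and its difference from them was not tested.

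Of 12 interferon response genes, 11 were called higher at 8 h and 12 at 12 h, beside the same 17.1% and 16.3% of all genes, with medians of 5.13 and 5.82. Between 8 h and 12 h, 2 were called higher and 2 lower, shares near the 13.5% and 18.7% of all genes, with a median of 0.21, beside -0.06 over all genes. Rsad2, the antiviral viperin gene, rose by 8.68 (SE 0.08) at 8 h and by a further 0.92 (SE 0.08), and Irf7, a transcription factor gene of the interferon loop, by 5.31 and a further 0.92 (SE 0.06). Ifit1, another antiviral gene, stood at 7.23 and then 0.34 (SE 0.06), the latter under a fold of 1.4. Oasl1 rose by 8.64 and then fell by 0.50 (SE 0.06), or by 0.45 with median of ratios scaling, where it was not called. The other gene of the list called lower was Ifnb1, which encodes interferon beta and was named after its values were seen. It fell by 2.27 (SE 0.15, adjusted p = 3.3e-07) between 8 h and 12 h. Zfp36 and Zc3h12a, which encode proteins that degrade inflammatory mRNA, rose at 8 h by 2.71 (SE 0.08) and 1.10 (SE 0.06) and then changed by -0.51 (SE 0.08, called) and -0.29 (SE 0.06, not called). With either other scaling the change of Zfp36 between the times was not called.

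**Figure D4:**
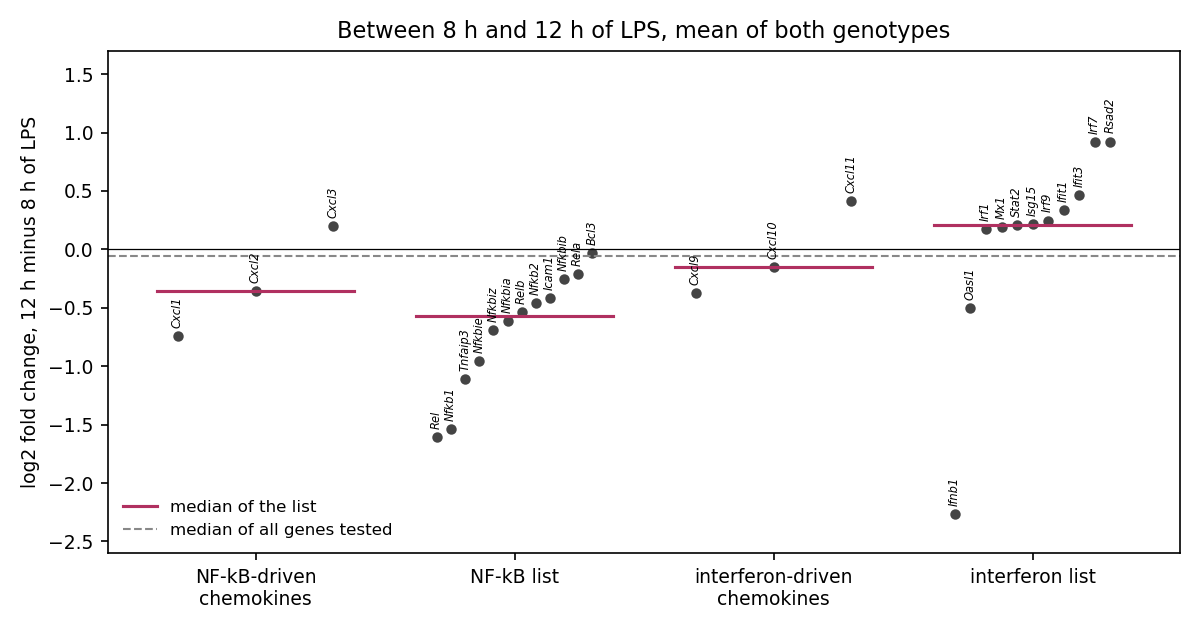
Log2 fold change from 8 h to 12 h of LPS for each gene of the 2 chemokine classes, the 12 NF-kB genes and 11 of the 12 interferon response genes, averaged over both genotypes, with the median of each whole list (red) and of all genes tested (dashed, -0.06). All 12 NF-kB genes and 2 of the 3 NF-kB-driven chemokines are below 0, while 9 of the 12 interferon response genes and 1 of the 3 interferon-driven chemokines are above 0.

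The receptor genes Cxcr4 and Cxcr3 fell with LPS under each scaling tried. Of 8 CXC receptor genes 3 passed the filter, and all 3 were called lower at 8 h and at 12 h, as were 59.8% and 60.3% of all genes. Cxcr3 and Cxcr2 reached 1 CPM in M0 libraries only, so the filter let them in through the side where they are high. Cxcr4, the receptor of Cxcl12, was at 280 to 299 CPM in the 4 M0 libraries and 1.17 to 1.80 at 8 h. On the log2 scale this was -6.94 (SE 0.10, adjusted p = 1.8e-13). It rose between 8 h and 12 h by 0.94 (SE 0.10, adjusted p = 1.3e-05) to 2.54 to 4.55 CPM. Cxcr3, the receptor of Cxcl9, Cxcl10 and Cxcl11, went from 5.76 to 7.03 CPM at M0 to 0.182 to 0.278 at 8 h, a change of -2.59 (SE 0.08, adjusted p = 9.0e-11). Cxcr2, the receptor of the ELR chemokines, changed by -0.52 (SE 0.12, adjusted p = 0.0017), but by -0.12 (adjusted p = 0.279) with quantile normalization, and did not pass the filter with median of ratios scaling. Cxcr2 is also 1 of the 7 neutrophil markers. Of 6 other CXC ligand genes 2 passed the filter. Cxcl14 fell by 1.87 (SE 0.20, adjusted p = 2.8e-06) at 8 h and Ppbp stood at 0.19 (SE 0.11, adjusted p = 0.107), which became 0.51 and 0.57, both called, with median of ratios and quantile normalization.

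The comparison of genotypes asked whether loss of Treml4 altered any of these levels. By limma none of the 8 tested members was called at M0, M1-8 h or M1-12 h, or over all 3 times, and the shares of all genes called were 0.0993%, 0.0910%, 0.132% and 0.414%. At an unadjusted p under 0.05 there were 2 members at M0, 4 at 8 h, 2 at 12 h and 3 over all times, of 8 each, where all genes gave 3.35%, 21.0%, 7.55% and 20.1%. voom on the recovered reads called none of the 8 in any of these comparisons either. The called genes split into 10 higher and 40 lower in wt over all times, but 26 and 24 with median of ratios scaling and 20 and 20 with quantile normalization. At 8 h the split was 4 and 7 against 7 and 6 and 6 and 5, and at 12 h 6 and 10 against 12 and 8 and 10 and 6. Log2 fold changes here are wt minus Treml4-/-.

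Cxcl1 was higher in wt at each time. The lowest wt library lay above the highest Treml4-/- library at M0 (1.41 against 0.935 CPM), at 8 h (9.12 against 7.62) and at 12 h (4.53 against 4.19). The log2 fold change was 0.67 (SE 0.22, adjusted p = 1) at M0, 0.62 (SE 0.22, adjusted p = 0.179) at 8 h and 0.44 (SE 0.22, adjusted p = 0.718) at 12 h. Over all times it was 0.58 (SE 0.13, 95% interval 0.30 to 0.86, adjusted p = 0.0646), rank 12 of 12086 by size of the wt excess and not called. Over 24 alternatives the adjusted p ran from 0.0262 to 0.189, and 6 of them called Cxcl1, among them the fits without wt M0 replicate 1 (0.62) and without Treml4-/- M1-8 h replicate 1 (0.66).

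Cxcl3, of the same cluster, went the other way after LPS. The highest wt library lay under the lowest Treml4-/- library at 8 h (10.1 against 12.7 CPM) and at 12 h (10.3 against 13.0), while at M0 all 4 libraries had 2 to 4 reads. The log2 fold change was -0.56 (SE 0.18, adjusted p = 0.169) at 8 h, -0.61 (SE 0.18, adjusted p = 0.333) at 12 h and -0.38 (SE 0.10, adjusted p = 0.117) over all times. Cxcl2 lay higher in wt at M0, by 0.49 (SE 0.18, adjusted p = 1), and its libraries overlapped at 8 h and 12 h with differences of -0.11 (95% interval -0.51 to 0.28) and -0.18 (-0.58 to 0.22). Without Treml4-/- M1-12 h replicate 1 the last of these was 0.029. Cxcl5 libraries overlapped at each time.

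Of the interferon-driven members, Cxcl9 overlapped between genotypes at all times and differed by 0.049 over all times (95% interval -0.23 to 0.33). Cxcl10 overlapped at M0 and 8 h and was higher in wt at 12 h, by 0.28 (SE 0.10, adjusted p = 0.502). Cxcl11 was lower in wt at 8 h, by -0.42 (SE 0.12, adjusted p = 0.157), and higher at 12 h, by 0.18 (SE 0.12, adjusted p = 0.823), with no overlap at either time. Without Treml4-/- M1-8 h replicate 1 the 8 h difference of Cxcl11 was -0.58 and was called (adjusted p = 0.0337, range over all alternatives 0.0337 to 0.664). From 8 h to 12 h Cxcl11 rose in wt by 0.71 (SE 0.12, adjusted p = 7.2e-04) and stood at 0.12 (SE 0.12, adjusted p = 0.459) in Treml4-/- cells. The test of that difference, chosen after the values were seen, gave 0.59 (SE 0.17, unadjusted p = 0.0054, adjusted p = 0.948). It called none of the 12086 genes (0%), with 3.21% at an unadjusted p under 0.05.

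Cxcl16 was higher in wt at M0 by 0.17 (SE 0.09, adjusted p = 1) and at 8 h by 0.26 (SE 0.09, adjusted p = 0.171), with no overlap, and by 0.033 (95% interval -0.15 to 0.22) at 12 h, where libraries overlapped. Pf4 overlapped at each time and differed by -0.36 over all times (95% interval -0.81 to 0.086). With wt replicate 1 alone, Pf4 in wt was 1.03, 1.10 and 1.09 times the Treml4-/- mean at M0, 8 h and 12 h. Replicate 2 of wt alone stood well under that mean, at 30.2 against 55.0 CPM, 27.0 against 47.5 and 20.0 against 36.1. The values do not say which wt replicate is typical.

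Counted over the 8 tested members, wt lay above Treml4-/- with no overlap in 3 at M0, 2 at 8 h and 3 at 12 h, where 10.8%, 18.0% and 12.3% of all genes did. It lay below in 0, 2 and 1 members, where 18.0%, 33.9% and 30.8% of all genes did. The sums of neutrophil markers also stood apart, at 33.1 to 86.3 CPM in wt and 88.5 to 104 in Treml4-/- M0 libraries, and at 55.7 to 60.2 and 69.7 to 90.1 at 8 h, while at 12 h they overlapped at 41.7 to 52.2 and 48.7 to 60.9. Macrophage markers summed to 20982 to 25435 CPM in wt and 18630 to 18872 in Treml4-/- M0 libraries, to 9781 to 11112 and 8395 to 8907 at 8 h, and to 8468 to 8921 and 8113 to 8341 at 12 h. These sums were apart at all 3 times, but single markers differed. At 12 h Lyz2, the highest by mean CPM, was at a mean of 3839 CPM in wt and 3069 in Treml4-/- BMDM. Fcgr1 and Mertk were also higher in wt. Csf1r (1245 against 1340), Itgam (1265 against 1415) and Cd68 (891 against 982) were lower in wt. Ly6g, the defining neutrophil marker, had 2 to 7 reads in M0 libraries and 0 or 1 in LPS libraries. S100a8, another neutrophil marker, was at 32.5 ± 2.62 CPM in wt and 45.1 ± 7.35 in Treml4-/- BMDM at 8 h and at 35.6 ± 7.06 and 42.1 ± 7.88 at 12 h (SD, n = 2). S100a9, Elane and Mpo also had lower means in wt at both LPS times. Camp went the other way, with means of 2.31 CPM in wt and 2.01 in Treml4-/- BMDM at 8 h and 1.15 and 0.92 at 12 h. So did Cxcr2 at 12 h, at 0.214 and 0.128 CPM. The part of either marker list in the chemokine differences was not tested.

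The 12 NF-kB genes had a median of 0.32 at 8 h and 0.21 over all times, beside -0.07 and -0.05 over all genes. All 12 were higher in wt both times, under each scaling tried, and 0 were called. Of the 12086 genes tested, 4602 and 4086 were higher in wt. The mean over all times includes the 8 h libraries. At M0 and at 12 h, 11 of the 12 NF-kB genes were higher in wt, with medians of 0.14 and 0.19. The 12 interferon response genes had medians of 0.018 at 8 h and -0.039 over all times, with 6 and 5 higher in wt and 0 called. With median of ratios scaling the latter were 0.15 and 0.048, with 8 and 9 higher. At M0 and 12 h, 2 and 9 of the 12 interferon response genes were higher in wt, or 3 and 12 with median of ratios scaling.

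**Figure D5:**
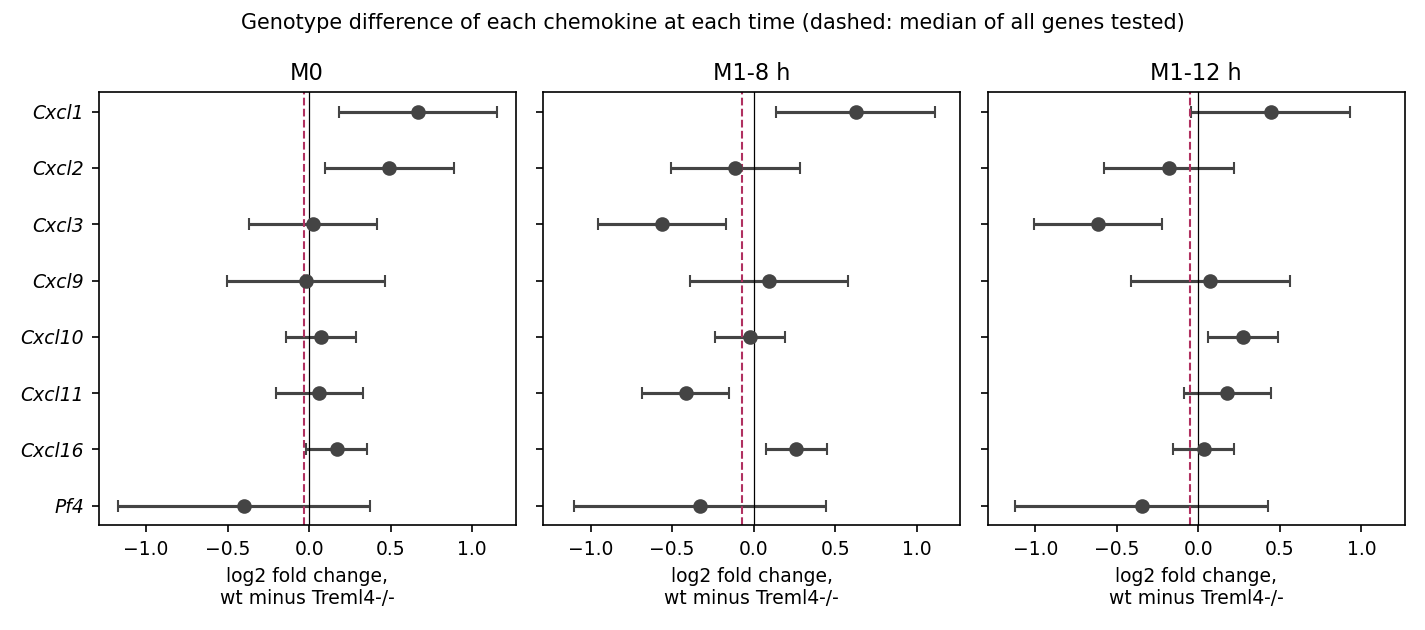
Log2 fold change of the 8 tested members, wt minus Treml4-/-, at M0, M1-8 h and M1-12 h. Bars are 95% confidence intervals from limma, beside the median of all genes (dashed). Cxcl1 lies right of 0 at each time, at 0.67, 0.62 and 0.44, and Cxcl3 left of 0 after LPS, at -0.56 and -0.61. No difference was called.

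Whether LPS acted differently by genotype was tested by an interaction, the LPS change in wt minus that in Treml4-/- cells. No member was called at 8 h or 12 h, where 0.00827% of all genes, 1 of 12086, were called each time. At an unadjusted p under 0.05 there were 3 members at 8 h and 2 at 12 h, beside 6.67% and 3.82% of all genes. By limma the interaction of Cxcl2 was -0.60 (SE 0.25, unadjusted p = 0.037) at 8 h and -0.67 (SE 0.25, unadjusted p = 0.023) at 12 h. That of Cxcl3 was -0.59 (SE 0.25, unadjusted p = 0.040) and -0.64 (SE 0.25, unadjusted p = 0.028), and that of Cxcl11 at 8 h -0.48 (SE 0.17, unadjusted p = 0.017). The adjusted p was 0.729 at 8 h and 0.9995 at 12 h. For Cxcl2 the genotypes stood apart at M0 and overlapped after LPS, while for Cxcl3 they overlapped at M0 and stood apart after LPS.

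For each tested member the 3 most similar profiles over the 12 libraries were listed among the 7423 tested genes outside the list with a mean of at least 10 CPM, by Pearson's r of log2(CPM + 1). All 12 libraries share the step from M0 to LPS, so these values are descriptions. Cxcl9 was most like Nos2 (r = 0.999), the inducible nitric oxide synthase gene, then Ptgs2 and Procr. Cxcl10 was most like Batf2, Daxx and Nos2, and Cxcl11 most like Tgtp1, AW112010 and Mx1, all at r = 0.999 or above. Cxcl2 was closest to Entpd1 (0.997), Wfdc17 and Slamf8, and Cxcl3 to Ido1 (0.994), Il1f6 and Il1f9. Cxcl1 was closest to Acvr1b (0.980), Zc3h12a (0.976) and Junb (0.973), and Cxcl16 to Ehd1 (0.991), Itpkb and Pak4. Pf4 had the loosest matches, Snrnp27 (0.892), Pfdn1 (0.888) and Mrc1 (0.861), the last being the mannose receptor gene. Cxcl1 and Cxcl3 shared none of their 3 genes, and Nos2 was the gene that Cxcl9 and Cxcl10 had in common.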

How the data were processed

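RNA of 12 BMDM libraries, 2 for each of 6 conditions, was read as poly(A)-selected, stranded 126 bp pairs. The authors aligned reads with STAR (mm10), counted them with Subread and deposited log2 CPM, to which 0.25 reads had been added, scaled by library size. Whether counting used strand is not given in the sources used here. Taking the prior away gave whole reads for 100% of values (tolerance 0.1 reads, recomputed log2 CPM within 5.15e-14). Replicates of a condition differed beyond sampling noise (chi-square per degree of freedom 11.3 to 51.7) and were kept apart. P-values set each difference against the spread between libraries of a condition, estimated over the 6 conditions together. With 2 libraries per condition they say little about variation between other animals.

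The design assumed CPM, so CPM were computed from these reads and tested as log2(CPM + 1) by limma 3.58.1 in R 4.3.3, fitting the 6 conditions as separate means with a variance trend. Of 43280 genes, the 12086 reaching 1 CPM in 2 or more libraries were kept. Genes were called at 5% false discovery rate (Benjamini-Hochberg) with a minimum fold of 1.4, after the thresholds of the study. LPS contrasts are means of both genotypes. The fit was tested on simulated data. A further motif and 1 listed gene are not reported by name here. Transcript lengths are those of the principal coding transcript in GENCODE M21 (GRCm38), and tables were handled in Python 3.11.15 with pandas 2.3.3.

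The members, the classes and the other gene lists were chosen with earlier results of these data known. Of each list other than the members, at most the 4 genes with the largest mean CPM are named, beside Ifnb1, all markers and the genes most like a member. Alternatives were a pseudocount of 0.1, no filter or one at 5 CPM, median of ratios scaling, quantile normalization, replicate blocks, only the groups compared, no minimum fold, the deposited log2 values, voom and leaving out each library. The 2 blocks within each time, the other scalings for the gene lists and the interaction between 8 h and 12 h were added after seeing the data.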

Additional observations from a re-analysis of the deposited data

How the results depend on the processing

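Each condition had 2 libraries, and Cxcl3, Cxcl5 and Cxcl11 rest on 0 to 9 reads per library at M0. Of the 8 tested members only Pf4 changed the sign of its LPS change with scaling, to 0.61 at 8 h and 0.26 at 12 h under median of ratios and to 0.31 at 8 h under quantile normalization. A change of sign counted as a reversal where the reported value was called or more than 1 SE from 0, or where the alternative was called. A further 45 values, called in neither fit, changed sign.

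Of 224 counts of called members, 212 kept within 1.5 times, and of 1790 single log2 fold changes 1760 kept their call with no such reversal. Members called between 8 h and 12 h were 3 with quantile normalization and 4 with no minimum fold, against 1. Over all times, 1 member, Cxcl1, was called with median of ratios, with quantile normalization and with either block within each time, against 0. Genotype counts over all genes were less stable than member counts. Over all times 50 genes became 78 with a pseudocount of 0.1, 17 with no filter, 31 with a filter at 5 CPM and 119 with no minimum fold. At 8 h, 11 became 7 with no filter and 5 with only the groups compared, and at 12 h, 16 became 7 with no filter and 10 with voom or the block within each time. At M0, 12 became 6 with only the groups compared. The interaction counts, 1 each, became 2 at 8 h with no filter, 2 at 12 h with quantile normalization and 0 at both with the deposited log2 values or voom. Between 8 h and 12 h, 3885 became 7291 with no minimum fold. The causes were not tested.

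Without 1 library at a time, members called ranged from 1 to 2 between 8 h and 12 h (the second was Pf4, without wt M1-12 h replicate 1 or wt M1-8 h replicate 2, or Cxcl11, without Treml4-/- M1-8 h replicate 2), from 7 to 8 at 12 h against M0, and from 0 to 1 for genotype at 8 h and over all times. Genes called ranged from 7 (without Treml4-/- M0 replicate 1) to 219 (wt M0 replicate 1) at M0, from 8 to 598 (Treml4-/- M1-8 h replicate 1) at 8 h, from 6 (either replicate 2 of M1-12 h) to 79 (wt M1-12 h replicate 1) at 12 h, from 20 (Treml4-/- M0 replicate 1) to 183 (wt M0 replicate 1) over all times, and from 1 to 3 (wt M0 replicate 2) and 1 to 33 (wt M0 replicate 1) for the interactions at 8 h and 12 h. Without 1 of 9 libraries the count over all times moved by more than 1.5 times. The lone library left in a condition is assumed to vary like the others. Leaving out libraries moved Pf4 at M0 from -0.84 to 0.038 (the latter without wt M0 replicate 2) and Cxcl2 at 12 h from -0.39 to 0.029 (without Treml4-/- M1-12 h replicate 1).

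The labels do not say whether replicate numbers pair libraries, and the values do not settle it. Deviations of same-numbered libraries correlated at -0.264, 0.297 and 0.056 between genotypes at M0, 8 h and 12 h, and at -0.272 to 0.462 within genotypes. The main fit treated libraries as unpaired. The replicate block called 12, 12 and 15 genes at M0, 8 h and 12 h and 55 over all times, and the block of replicates within each genotype 12, 11, 16 and 36. For genotype this block was a random effect (correlation 0.041), a form chosen after seeing the data, since its levels are nested in genotype. The block within each time with numbers crossed at M0 called 421 genes at 8 h, against 13 uncrossed.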
